A study of Mus musculus with 17 samples.

Results

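A set of 9 surface and signaling genes of B cells, all in use in mature B cells, was followed through RNA sequencing of the mouse cochlea: Cd79a, Cd79b, Ms4a1, Cd22, Cr2, Fcer2a, Blk, Bank1 and Pax5. They were chosen by name, and each matched 1 of the 35285 genes measured, so all 9 members were found. The libraries came from wild-type male C57BL/6J mice aged 8 weeks, 1 library per mouse, collected 2 days after exposure. The control group (3 libraries) received 3 saline injections and no noise. The NE group (7 libraries) had noise exposure of 8 to 16 kHz at 100 dB for 2 h, which the labels call broadband and the methods octave-band, and whether these mice were injected is not stated. The brimonidine group (7 libraries) had the same noise and 3 intraperitoneal injections of 1 mg/kg brimonidine, which activates α2-adrenergic receptors, before and after the exposure. In the sequencing methods, RNA was taken from cochleae. The methods for qPCR name the basilar membrane and state that part of its RNA went to sequencing, so the tissue sequenced is not certain. The labels give cochlear cells as the tissue and interstitial cells as the cell type, and no sort of B cells is described.

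B cells sense antigen through the B-cell receptor, a membrane immunoglobulin held by the signaling chains CD79A and CD79B. Kinases pass the signal on, inhibitory receptors such as CD22 restrain it, and the complement receptor CR2 lowers the amount of antigen needed. B cells arise in bone marrow, and the temporal bone around the cochlea holds marrow, so bulk cochlear RNA can hold B-cell transcripts from bone, blood or the inner ear. Cd79a, Cd79b, Pax5 and Blk are switched on early in the B lineage and stay on, whereas Cr2 and Fcer2a come with maturity. In bulk RNA, fewer B cells and less RNA per B cell cannot be told apart.

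The members fall into 3 roles. Cd79a (chromosome 7, 24897381 to 24902197 in mm10, plus strand) and Cd79b (chromosome 11, 106311341 to 106314762, minus strand) encode the signaling chains of the receptor. The surface molecules are Ms4a1 (chromosome 19, 11249675 to 11266241), which encodes CD20, Cd22 (chromosome 7, 30865402 to 30880342), an inhibitory lectin, Cr2 (chromosome 1, 195136811 to 195176716), which encodes the complement receptor CD21, and Fcer2a (chromosome 8, 3681737 to 3694175), which encodes the low-affinity IgE receptor CD23 of naive follicular B cells. Inside the cell act Blk (chromosome 14, 63372836 to 63417037), a Src-family kinase, Bank1 (chromosome 3, 136053363 to 136326066), an adaptor of receptor signaling, and Pax5 (chromosome 4, 44524757 to 44710487), the transcription factor that commits cells to the B lineage. All of these but Cd79a lie on the minus strand. In the annotation, 9.50% of the exon bases of Cd22 overlap an antisense gene, as do 1.41% and 7.18% of those of Pax5 with 2 antisense genes. Whether the authors counted by strand is not given in the sources used here, so reads of these 2 members and of their partners may be mixed.

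RefSeq promoters, from 250 bases before the start to 50 after it on GRCm38.p6, were found for 6 of the 9 members, while Cd79b, Ms4a1 and Blk had none in the table used. Shown here are Cd79a, the member with the highest level, and Cd22, Cr2 and Fcer2a, the members whose brimonidine and NE levels differed at an unadjusted p under 0.05. They are written 5′ to 3′ on the strand of the gene, and capitals mark any match to the octamer ATGCAAAT of OCT factors or to TCCCNNGGG, a short form of the site of the B-cell factor EBF1, on either strand. The last is the outermost of 3 RefSeq starts of Fcer2a.
Cd79a, chr7:24897247-24897546, plus strand: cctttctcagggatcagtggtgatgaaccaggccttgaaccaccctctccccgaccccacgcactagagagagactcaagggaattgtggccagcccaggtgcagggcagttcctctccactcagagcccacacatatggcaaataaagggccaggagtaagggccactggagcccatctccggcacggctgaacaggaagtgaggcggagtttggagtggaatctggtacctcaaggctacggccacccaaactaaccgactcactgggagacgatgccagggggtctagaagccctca
Cd22, chr7:30878979-30879278, minus strand: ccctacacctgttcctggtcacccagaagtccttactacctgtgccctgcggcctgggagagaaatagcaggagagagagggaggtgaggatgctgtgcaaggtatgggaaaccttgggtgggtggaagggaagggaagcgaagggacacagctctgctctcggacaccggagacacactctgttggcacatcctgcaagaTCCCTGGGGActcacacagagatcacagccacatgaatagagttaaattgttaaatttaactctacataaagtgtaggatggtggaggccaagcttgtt
Cr2, chr1:195176670-195176969, minus strand: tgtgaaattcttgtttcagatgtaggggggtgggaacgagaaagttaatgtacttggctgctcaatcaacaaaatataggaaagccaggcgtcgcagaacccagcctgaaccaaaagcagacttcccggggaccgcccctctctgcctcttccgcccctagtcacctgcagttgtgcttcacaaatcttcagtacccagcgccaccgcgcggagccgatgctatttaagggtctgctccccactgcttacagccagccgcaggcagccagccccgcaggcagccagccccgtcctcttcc
Fcer2a, chr8:3694125-3694424, minus strand: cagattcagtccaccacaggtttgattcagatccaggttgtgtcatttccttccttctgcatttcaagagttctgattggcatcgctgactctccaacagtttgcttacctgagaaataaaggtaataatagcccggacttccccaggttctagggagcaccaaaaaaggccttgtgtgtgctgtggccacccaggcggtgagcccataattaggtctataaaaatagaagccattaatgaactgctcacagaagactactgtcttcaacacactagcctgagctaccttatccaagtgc
The Cd22 promoter held 2 overlapping matches to the EBF1 form, one per strand, and no other promoter of the 6 members held a match to either motif. Only exact matches to the fixed letters were sought. Sites that depart from them are not marked, so the absence of a match does not show the absence of a site. Among 32851 promoters of the same length, 6.56% held the EBF1 form and 1.74% held the octamer. GC content was 58.3% for Cd79a, 52.3% for Cd22, 57.3% for Cr2 and 46% for Fcer2a.

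The libraries held between 14457733 and 18288854 counted fragments, with control libraries at 14457733 to 16080796. Levels are FPKM, the fragments counted on a gene scaled by its exon length and by the library total. A gene was tested where at least 3 of the libraries compared reached 1 FPKM, and it was called where the Benjamini-Hochberg adjusted p of limma on log2(FPKM + 1) was under 0.05 and the log2 difference was at least 1 in size. Some features of the libraries touch the comparisons with control. The 8 hindbrain neuron markers summed to 186 to 502 FPKM in the controls, 4.92 to 16.1 in NE and 6.55 to 58.5 in brimonidine libraries. Control 2 had the lowest neutrophil marker sum of all (9726 FPKM, against 43400 and 45800 in the other controls), the lowest plasma cell sum of the controls and the highest bone, erythroid and inner ear sums of the 3. The 12 inner ear markers summed to 493 to 1195 FPKM over the 17 libraries and none was at 0 in a whole group. Markers of B-cell precursors were present beside the members (summed level 19.8 to 54.1 FPKM), and the share of the members' RNA from mature B cells was not tested. The part of these differences in the members' values was not tested.

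Both receptor chains stood far above the other members. Cd79a measured 11.3 to 38.5 FPKM over the 17 libraries (mean 24.4 ± 7.74, SD) and Cd79b 7.21 to 23.3 FPKM (15.9 ± 4.47). Cd79a exceeded Cd79b in 17 of 17 libraries, and Cd79b exceeded every lower member in all 17 as well. Then followed Blk (2.10 ± 1.08 FPKM), Ms4a1 (1.62 ± 0.598), Cd22 (1.49 ± 0.643), Bank1 (1.11 ± 0.184) and Pax5 (1.09 ± 0.816). Neighbours in this middle range did not keep the same order in every library: Blk was above Ms4a1 in 13 of 17 libraries, Ms4a1 above Cd22 in 10, Cd22 above Bank1 in 14 and Bank1 above Pax5 in 14. Fcer2a (0.556 ± 0.475 FPKM) and Cr2 (0.218 ± 0.106) were lowest, and Fcer2a was above Cr2 in 16 of 17 libraries. These last members had few fragments. Fcer2a rested on 3 to 101 fragments per library and Cr2 on 8 to 61, whereas Cd79a rested on 264 to 926. In NE 6, the 3 Fcer2a fragments gave 0.0615 FPKM with an exact 95% Poisson interval of 0.0127 to 0.180, which covers counting error only.

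**Figure D1:**
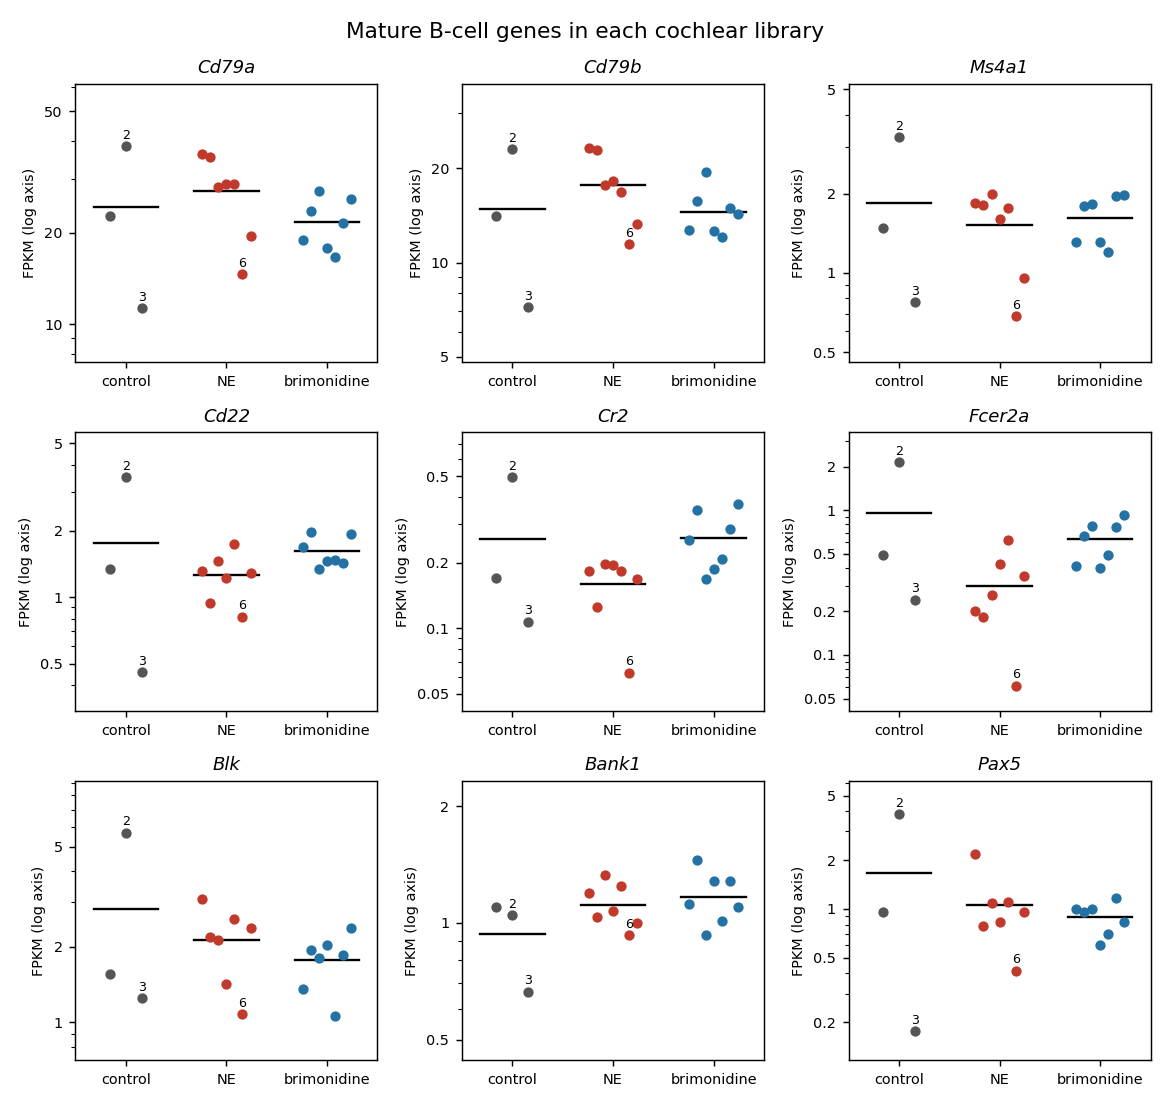
FPKM (log axis) of the 9 members in each library, by group, with a black line at the group mean and the replicate number printed at control 2, control 3 and NE 6. Control 2 is the highest of all libraries in 7 panels and control 3 the lowest in 5, and NE 6 is the lowest NE library in all 9.

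The 3 control libraries differed more among themselves than the groups did. Cd79a measured 22.7 FPKM in control 1, 38.5 in control 2 and 11.3 in control 3, and Cd79b 14.1, 23.0 and 7.21. Pax5 was the widest, with 0.961, 3.82 and 0.176 FPKM from 123, 514 and 25 fragments, so that control 2 was 21.8 times control 3. Control 2 was the highest control for 8 of 9 members and the highest of all 17 libraries for 7, and control 3 was the lowest control for all 9. Fcer2a measured 0.492, 2.15 and 0.241 FPKM, Cd22 1.34, 3.50 and 0.456, and Blk 1.56, 5.69 and 1.24. The same order held for Ms4a1, at 1.49, 3.28 and 0.774 FPKM, and for Cr2, at 0.171, 0.495 and 0.107. Bank1 varied least, at 1.10, 1.05 and 0.665 FPKM, where control 2 was 1.58 times control 3. Over 16247 genes the median ratio of control 2 to control 3 was 1.08, and 2.86% of the genes had a ratio above 3, as 8 of the 9 members did. B-cell precursor markers followed the same order, with sums of 33.3 FPKM in control 1, 54.1 in control 2 and 19.8 in control 3.

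The first comparison, NE with control, asks what changed in the cochlea 2 days after noise. None of the 9 members was called, and the groups overlapped for all 9. The smallest and largest adjusted limma p among the 7 members tested were 0.438 and 0.807, and no member had an unadjusted p under 0.05 in limma or, over all 9, in voom. Over all 15950 genes tested, 5.76% were called, 32.9% had an unadjusted p under 0.05 and 18.3% had groups that did not overlap. Cr2 and Fcer2a fell under the filter, and their values come from limma without it, from voom and from the exact permutation test, whose smallest possible p with 7 and 3 libraries is 0.00833.

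For the receptor chains the NE means lay above the control means. Cd79a in NE ran from 14.6 to 36.2 FPKM with a median of 28.8 (27.3 ± 7.87, n = 7) against 24.2 ± 13.7 (n = 3) in the controls. The log2 difference was 0.27 (95% interval -0.52 to 1.06, exact permutation p = 0.542). Cd79b ran from 11.4 to 23.3 FPKM with a median of 17.7, and its log2 difference was 0.34 (-0.34 to 1.02, exact permutation p = 0.4). For both chains NE 1 and NE 2 were the highest NE libraries, near control 2, and NE 6 was the lowest, between control 3 and control 1.

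Bank1 also had a positive difference, and the other members had negative ones. Bank1 in NE ran from 0.932 to 1.33 FPKM with a median of 1.07, a log2 difference of 0.13 (exact permutation p = 0.183). Fcer2a had the largest difference, with NE values of 0.0615 to 0.627 FPKM and a median of 0.259 against a control mean of 0.962 ± 1.04, a log2 difference of -0.48 (-1.03 to 0.07, exact permutation p = 0.1). In 3 NE libraries Fcer2a was below every control. Cd22, Blk, Pax5, Ms4a1 and Cr2 had log2 differences of -0.15, -0.15, -0.16, -0.11 and -0.11. The intervals of all 9 included 0, and for Pax5 the interval ran from -0.998 to 0.675, so this fit with 3 controls did not settle its direction.

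A single control library set most of these signs. Without control 2 the differences of Ms4a1 (0.24), Cd22 (0.28), Cr2 (0.02), Blk (0.35) and Pax5 (0.39) became positive, those of Cd79a and Cd79b grew to 0.68 and 0.71, and that of Fcer2a shrank to -0.08. Without control 3 the signs of Cd79a (-0.17) and Cd79b (-0.07) became negative, that of Fcer2a was -0.75 and Bank1 kept 0.03. With array weights, which let limma weigh libraries by their fit, control 3 received a weight of 4.62 and control 2 one of 0.0801. Cd79a (log2 difference 1.11, adjusted p = 0.0026) and Cd79b (1.08, adjusted p = 0.00143) were then called, beside 5.08% of all genes tested. By the adjusted p alone all 7 members tested passed in this fit, all with positive differences, beside 37.4% of all genes tested.

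**Figure D2:**
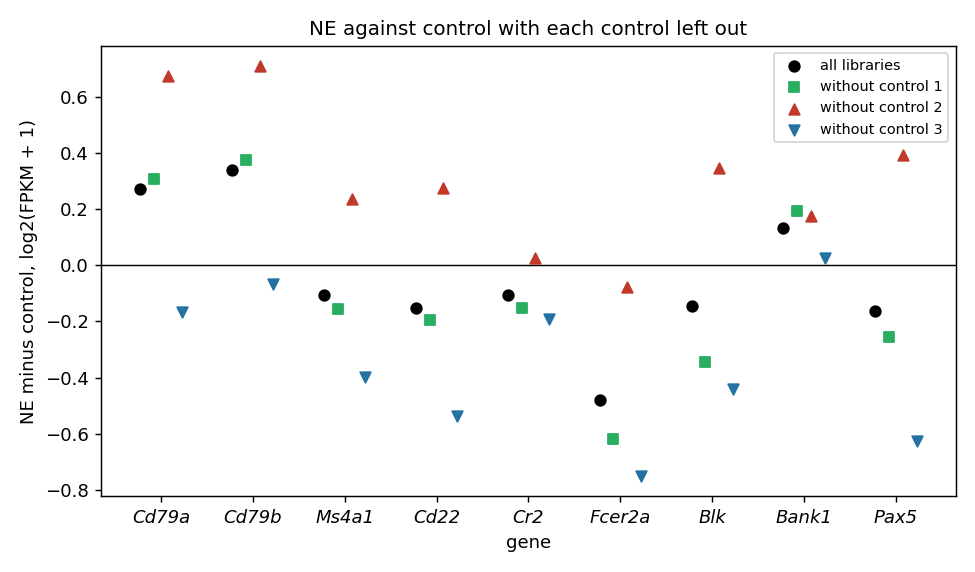
NE minus control on the log2(FPKM + 1) scale for each member, with all libraries (black circles) and without control 1, 2 or 3 (green squares, red triangles pointing up, blue triangles pointing down). Of the 9 members, 7 change sign when control 2 or control 3 is left out, and Bank1 and Fcer2a keep theirs.

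The second comparison, brimonidine with NE, asks what the drug changed after the same noise. None of the 7 members tested was called, as was 0% of the 15707 genes tested. Cd22 was the 1 tested member with an unadjusted limma p under 0.05, beside 5.77% of all genes tested. Without the filter 3 of the 9 members had one, namely Fcer2a, Cr2 and Cd22, beside 4.67% of 34125 genes, and all 3 were higher in the brimonidine group. The same number of members, 3 of 9, had one in voom, beside 5.65% of 16713 genes, and voom also called no gene. The groups of all 9 members overlapped, and 0.14% of genes tested had groups that did not.

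Fcer2a, the CD23 gene, differed most. In NE it ran from 0.0615 to 0.627 FPKM with a median of 0.259, and with brimonidine from 0.398 to 0.934 with a median of 0.667. All 7 brimonidine libraries lay above the NE median and 4 above every NE library. The brimonidine mean was 2.12 times the NE mean (0.636 ± 0.207 against 0.301 ± 0.186, n = 7 each), with a log2 difference of 0.33 (0.12 to 0.55, exact permutation p = 0.00816). On the recovered fragments voom gave a log2 fold change of 1.23 ± 0.362 (SE) with an adjusted p of 0.624. Leaving out each library in turn moved the log2 difference between 0.29 and 0.39.

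Cr2, the CD21 gene, also had higher values with brimonidine. Its NE libraries ran from 0.0625 to 0.197 FPKM with a median of 0.183, and its brimonidine libraries from 0.169 to 0.371 with a median of 0.253, and 5 of the 7 were above every NE library. The ratio of means was 1.64 and the log2 difference 0.12 (0.03 to 0.21, exact permutation p = 0.0128). In voom the log2 fold change was 0.70 ± 0.256 (SE) with an adjusted p of 0.786. Cd22 ran from 0.818 to 1.75 FPKM with a median of 1.28 in NE and from 1.34 to 1.98 with a median of 1.48 with brimonidine. All 7 brimonidine libraries were above the NE median, with a log2 difference of 0.22 ± 0.0942 (SE, exact permutation p = 0.0379) and an adjusted limma p of 0.857. Its unadjusted limma p did not stay under 0.05 in every refit that left out 1 library: without NE 2 and without brimonidine 1, 2 or 7 no tested member had one.

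The receptor chains pointed the other way, within their spread. Cd79a with brimonidine ran from 16.7 to 27.3 FPKM with a median of 21.4, and no brimonidine library reached the NE median of 28.8. The log2 difference was -0.29 (-0.68 to 0.11, exact permutation p = 0.169). Cd79b with brimonidine ran from 12.1 to 19.4 FPKM with a median of 14.3, a log2 difference of -0.24 (-0.56 to 0.07, exact permutation p = 0.148). The remaining members were closer to 0. Blk had a log2 difference of -0.15, Pax5 -0.09, Ms4a1 0.07 and Bank1 0.04, with exact permutation p values between 0.336 and 0.62. Ms4a1 ran from 1.20 to 1.97 FPKM with brimonidine, where the 2 low NE libraries, NE 6 at 0.687 and NE 7 at 0.954, were lower, and its sign was negative without NE 6 (-0.02). Pax5 was positive without NE 1 (0.03).

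**Figure D3:**
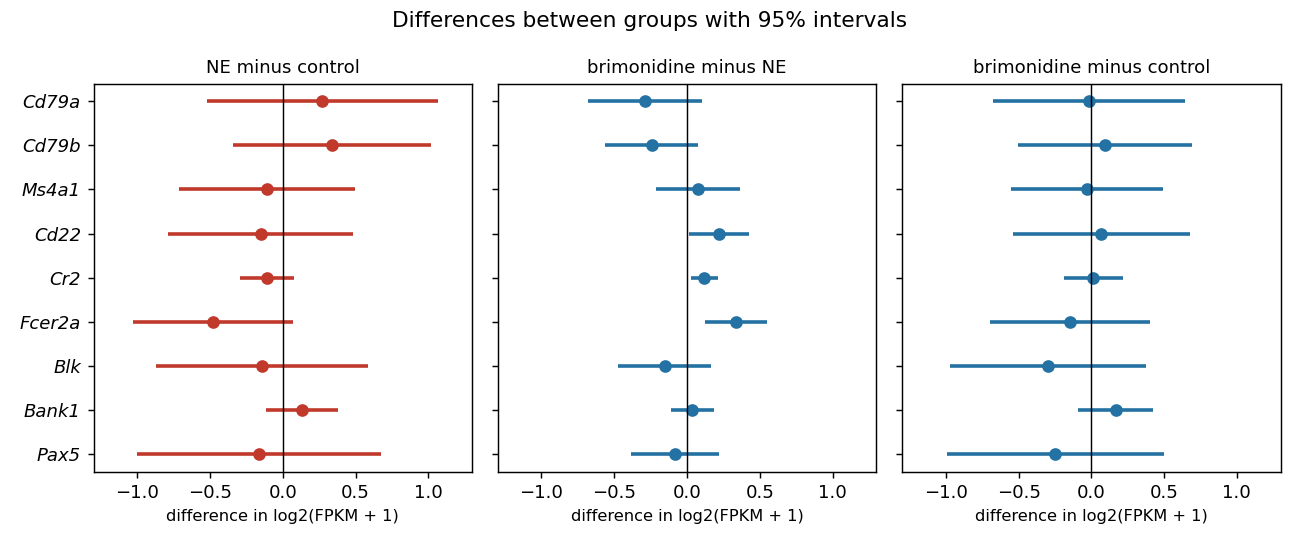
Difference in mean log2(FPKM + 1) between groups for each member (points) with 95% intervals from limma without a filter (lines), for NE minus control, brimonidine minus NE and brimonidine minus control. In the middle panel the intervals of Cd22, Cr2 and Fcer2a lie above 0, before any adjustment for the genes tested, and the intervals of both comparisons with the 3 controls are wider.

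Each member was also set against Cd79a in the same library, a measure chosen after the values were seen and given with no test. In NE, Fcer2a was 0.422 to 2.17% of the Cd79a level with a median of 0.919%. With brimonidine it was 2.18 to 3.62% with a median of 2.86%, and the lowest brimonidine and highest NE libraries, with 23 and 34 Fcer2a fragments, were not distinguishable. In the controls it was 2.16, 5.59 and 2.14%. The denominator had lower values with brimonidine, within its spread, so the distance between the groups is partly set by that choice. Cr2 had a median of 0.634% in NE and 1.34% with brimonidine, Cd22 one of 5.19% and 8.16%, and Ms4a1 one of 5.12% and 7.36%. Bank1 (4.30% and 5.98%), Blk (7.52% and 8.24%) and Pax5 (3.82% and 4.03%) had closer medians. Cd79b also had close medians, at 64.3% in NE and 69.8% with brimonidine. Ighd, the IgD heavy chain of mature naive B cells and no member, measured 14.6% and 27.4%, and it was picked after its values were seen, as the gene of the mature-state list with the highest difference in brimonidine against NE. That list went both ways, with 7 genes above 0 and 8 below.

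**Figure D4:**
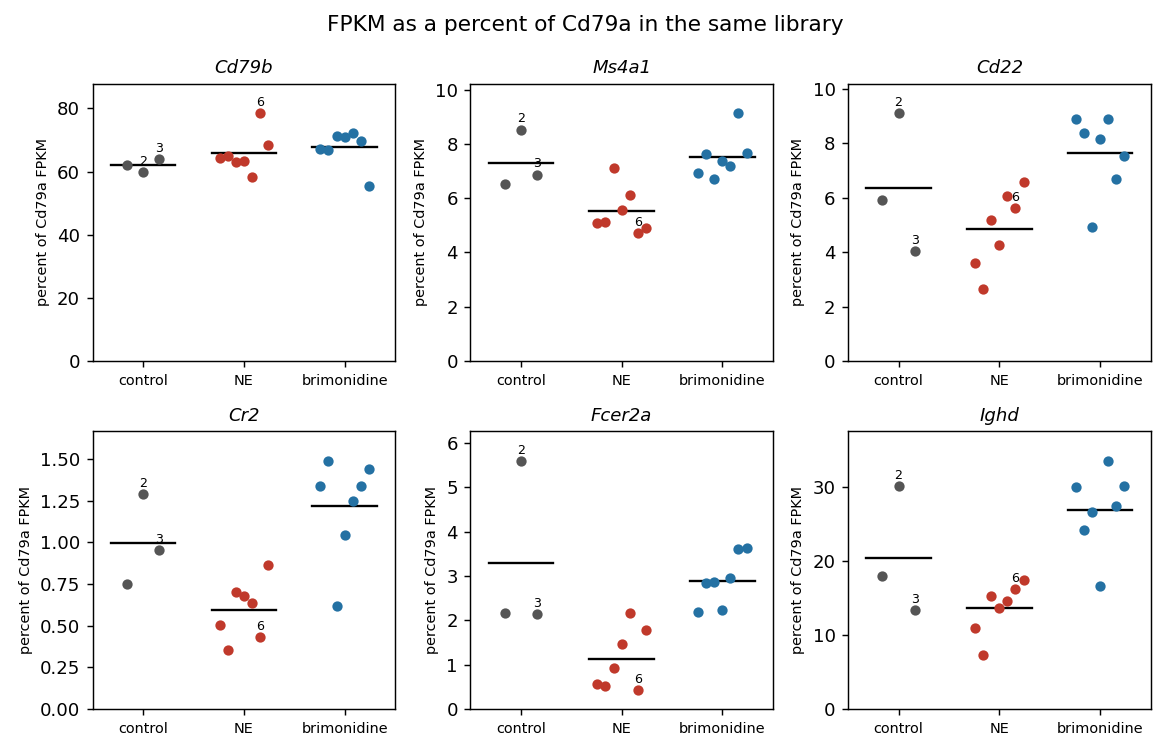
FPKM of Cd79b, Ms4a1, Cd22, Cr2, Fcer2a and Ighd as a percent of the Cd79a FPKM of the same library, by group, with a black line at the group mean and the replicate number at control 2, control 3 and NE 6. For Fcer2a the NE libraries run from 0.422 to 2.17% and the brimonidine libraries from 2.18 to 3.62%, so the groups meet at their edges, and for the other genes they overlap.

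Brimonidine was compared with control as well, over the same control libraries as in the first comparison. No member was called among the 6 tested, where Pax5 joined Cr2 and Fcer2a under the filter, and no member's groups stood apart. None of the 9 had an unadjusted p under 0.05 in limma or voom. Of the 15947 genes tested, 5.73% were called, 35.6% had an unadjusted p under 0.05 and 19.4% had groups that did not overlap. The log2 differences of the 9 members ran from -0.30 for Blk (1.06 to 2.36 FPKM with brimonidine, exact permutation p = 0.442) to 0.17 for Bank1 (0.931 to 1.45 FPKM, exact permutation p = 0.142). Fcer2a was at -0.15 and Cr2 at 0.01, and Cd79a, at -0.02, had an interval of -0.67 to 0.64. Without control 2, Cd79a, Ms4a1, Fcer2a, Blk and Pax5 changed to positive values of 0.39, 0.31, 0.26, 0.19 and 0.31. Without control 3, Cd79b, Cd22 and Cr2 changed to negative values of -0.31, -0.32 and -0.07, and Cd79a moved to -0.46. With array weights, 5 of the 6 members had an adjusted limma p under 0.05, beside 43.4% of all genes tested, and none reached a log2 difference of 1.

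Other genes of the receptor pathway gave the setting for these values. Of 28 pathway genes, all tested, none was called in any of the 3 comparisons. Their median log2 difference was 0.25 in NE against control, where 22 of 28 were above 0 and the median over all genes tested was -0.04. An unadjusted p under 0.05 was found for 16 of 28, beside 32.9% of all genes tested. By the adjusted p alone, with no minimum fold, 5 of the 28 passed, beside 14.1% of all genes tested, 4 of them higher and 1 lower in NE. Syk, the kinase recruited to the CD79 chains, measured 27.6 ± 6.18 FPKM in control and 36.9 ± 2.57 in NE, a log2 difference of 0.42 with an adjusted limma p of 0.0472. The phospholipase gene Plcg2 (0.67), the inhibitory phosphatase gene Inpp5d (0.52) and the transcription factor gene Nfatc1 (0.26) were higher too. Prkcb, a kinase on the way from the receptor to NF-κB, was lower, with 17.5 ± 1.89 FPKM in control and 12.6 ± 1.43 in NE, a log2 difference of -0.45 with an adjusted limma p of 0.0186. None of these genes is particular to B cells. The summed pathway level was lowest in control 2 (410 FPKM, against 552 and 617 in the other controls). In the same comparison the 9 neutrophil markers had a median log2 difference of 0.76 and the 8 hindbrain neuron markers one of -4.15, and the part of either in the pathway values was not tested. In brimonidine against NE the pathway genes had a median of 0.02 and 2 of 28 had an unadjusted p under 0.05, a share near the 5.77% of all genes tested.

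Markers of earlier and later B-lineage stages were set beside the members. In NE against control, 1 of 9 plasma cell genes was called, beside 5.76% of all genes tested, where 43 of 15950 genes were called higher. The called gene was Irf4, a transcription factor of plasma cells (log2 difference 1.05, exact permutation p = 0.0167, adjusted limma p = 0.0314). All 9 were above 0, with a median of 0.62. Their summed level was 211 FPKM in control 2, against 638 and 799 in the other controls. The part of control 2 in these differences was not tested. None of 7 precursor, 15 mature-state or 8 T-cell genes tested was called, with medians of 0.03, 0.18 and 0.22. In brimonidine against NE none of these lists had a called gene, and all 9 plasma cell genes had values below 0 (median -0.28), of which 3 had an unadjusted p under 0.05, beside 5.77% of all genes tested. Sdc1, the plasma cell proteoglycan CD138, had the smallest exact permutation p of its list (0.00758). Its log2 difference was -0.36, with an adjusted limma p of 0.633. Of 6 precursor genes tested 5 were below 0 (median -0.24) and 3 had an unadjusted p under 0.05. Among them Vpreb3, which binds immunoglobulin chains in precursors, had the smallest exact permutation p of the precursor list (0.0157). Its log2 difference was -0.47, with an adjusted limma p of 0.661. The permutation p values of Sdc1 and Vpreb3 are extremes of their lists and make no allowance for that. The 15 mature-state genes had a median of 0.00, with Ighd at 0.58 (2.37 to 4.30 FPKM in NE, 2.98 to 7.79 with brimonidine, exact permutation p = 0.00641, adjusted limma p = 0.521). The 8 erythroid markers had a median of 0.19, the 8 T-cell and 9 neutrophil markers both -0.01, the 6 bone markers 0.00, the 8 inner ear markers tested 0.09 and the 4 hindbrain markers tested 0.16. Their part in the members' values was not tested.

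The members varied together across libraries. Over the 17 libraries, the Pearson r of each member with the mean of the 9 standardised members ran from 0.558 for Bank1 to 0.948 for Ms4a1, and each member is part of that mean. Among the 5 other genes most like it were Chst3 (r = 0.931), Otos (0.894), Fcrla (0.879) and Ppp1r1a (0.868). Control 2 is an extreme point of most members and of the inner ear marker sum, and all genes of a library share its depth. Taken as deviations from the group means over the 14 exposed libraries, the genes most like the members were Nod2 (0.908), E330020D12Rik (0.890), Fcrla (0.883), Chst3 (0.874) and Fcer1a (0.860). Fcrla, a B-cell protein related to Fc receptors, and Chst3, a chondroitin sulfotransferase, were among the 5 in both. Among the exposed libraries NE 6 was the lowest for 7 of the 9 members, and NE 1 the highest for Cd79a, Cd79b, Blk and Pax5. NE 6 also had the highest neutrophil sum of the NE libraries (64700 FPKM, median 43516) and their lowest sums of T-cell, B-cell precursor, mature B-cell state and hindbrain neuron markers, and its array weight against brimonidine was 0.233, the lowest of the 14. The part of these in its low member values was not tested.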

How the data were processed

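Members, gene lists and tests were chosen with earlier results of these data known. The authors extracted RNA with TRIzol, prepared stranded mRNA libraries (TruSeq) and ran them on an Illumina NovaSeq. The submitters' processing notes name Trimmomatic, HISAT2, HTSeq, Cufflinks and mm10. The authors deposited FPKM values per gene, scaled by exon length and library total only.

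Multiplied by GENCODE M21 exon lengths and a whole library total, values gave whole fragments (within 0.01) for 92.5% of genes above 0, and for all 9 members in every library. Depth was 14457733 to 18288854 fragments, without molecular identifiers.

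Each comparison used limma 3.58.1 (lmFit, eBayes with trend, R 4.3.3) on log2(FPKM + 1) over the 2 groups compared, filtered at 1 FPKM in 3 libraries, with Benjamini-Hochberg adjustment over all genes tested. This scale understates changes of low genes. The authors used DESeq2, which was not run here, since the deposited unit is FPKM and voom served for the recovered fragments. Members were also compared by exact two-sided permutation. Intervals come from limma without the filter. p-values measure the spread between mice. Named genes were the 9 members, genes of the described lists and the 5 genes most like the members. A gene that this rule names is not reported here. The fit was tested on simulated data. Alternatives were a pseudocount of 0.1, no filter, median-ratio and quantile scaling, all 17 libraries in 1 model, array weights, no minimum fold, a replicate block, each library left out and, added after seeing the data, voom on recovered fragments. Python 3.11.15 was used. Replicate numbers did not pair libraries: no pair of equal number had a correlation of deviations over 0.1 (-0.221 to 0.0832).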

Additional observations from a re-analysis of the deposited data

Results flagged for a closer look

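Pax5 in NE 1 measured 2.18 FPKM, from 338 fragments, while the other 6 NE libraries ran from 0.415 to 1.10 FPKM. Its gap to the next library was 0.610 of the range of the group, above Dixon's 95% limit for 7 libraries. Of 18 sets of 7 libraries examined, 1 stood out in this way, and chance gives about 1 in 20. Without NE 1, the Pax5 difference of brimonidine against NE changed from -0.09 to 0.03 on the log2 scale. NE 1 was also the highest NE library for Cd79a, Cd79b and Blk and had the highest NE sums of B-cell precursor (42.1 FPKM), mature B-cell state (294 FPKM), erythroid, bone and hindbrain neuron markers. The part of these in the Pax5 value was not tested.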

How the results depend on the processing

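Across 522 recomputed differences of members, 466 kept their direction and their side of the threshold, 54 changed sign and 2 became called; the cause was not tested. Fcer2a and Cr2 in brimonidine against NE changed neither in any alternative. In NE against control, quantile scaling gave 0.11 for Ms4a1, 0.0551 for Cd22, 0.0674 for Blk and 0.0205 for Pax5, array weights gave 0.47, 0.56, 0.46, 0.70 and, for Cr2, 0.0283, and a pseudocount of 0.1 and voom gave 0.011 and 0.16 for Pax5. With the replicate block, which kept only the 3 replicate numbers that both groups share, Ms4a1 was 0.11, Blk 0.0263 and Pax5 0.029. In that fit 0 members and 0 genes were called. Array weights called 2 members, beside 5.08% of all genes tested. With libraries left out, values ran from -0.17 to 0.68 for Cd79a, -0.0654 to 0.71 for Cd79b, -0.40 to 0.24 for Ms4a1, -0.54 to 0.28 for Cd22, -0.19 to 0.0248 for Cr2, -0.44 to 0.35 for Blk and -0.62 to 0.39 for Pax5. In brimonidine against NE, array weights gave -0.0225 for Ms4a1, and with libraries left out Ms4a1 ran from -0.0181 to 0.12 and Pax5 from -0.17 to 0.0267. In brimonidine against control, median-ratio scaling gave 0.0878 for Cd79a and 0.0426 for Ms4a1, quantile scaling 0.19 for Ms4a1 and 0.0349 for Fcer2a, a pseudocount of 0.1 gave 0.0186 for Ms4a1, the replicate block 0.0892 for Cd79a, voom 0.000987, 0.0412 and 0.0326 for Cd79a, Ms4a1 and Pax5, and array weights 0.69, 0.45, 0.20, 0.24 and 0.33 for Cd79a, Ms4a1, Fcer2a, Blk and Pax5. Left-out libraries gave -0.46 to 0.39 for Cd79a, -0.31 to 0.46 for Cd79b, -0.32 to 0.31 for Ms4a1, -0.32 to 0.50 for Cd22, -0.0721 to 0.14 for Cr2, -0.42 to 0.26 for Fcer2a, -0.59 to 0.19 for Blk and -0.71 to 0.31 for Pax5.

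Genes called in NE against control were 918, and 2247 with no minimum fold, 0 with the replicate block, 1544 with voom and 368 (without control 2) to 934 with a library left out. In brimonidine against NE they were 0, and 1 with no minimum fold and 1 with array weights. In brimonidine against control they were 913, and 2518 with no minimum fold, 263 with the replicate block, 1620 with voom and 468 (without control 2) to 1080 with a library left out. Against control the block kept 3 libraries of each group, so its counts are not like for like with those of the full fits. The median of all genes in NE against control moved from -0.04 to 0.06 with median-ratio and 0.07 with quantile scaling, and in brimonidine against control from -0.03 to 0.08 with quantile scaling. The block did not change any other call for members. Low fragment counts limit Cr2 and Fcer2a, and 3 controls limit every comparison with them.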

Other observations

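Rag1, the recombinase of B-cell precursors, was 1.33 to 4.33% of the Cd79a FPKM of the same library in NE (median 2.09%). With brimonidine it was 2.15 to 3.70% (median 2.62%), and in the controls 0.835 to 12.8%. Vpreb1, a surrogate light chain, was 2.01 to 7.85% in NE (median 4.69%) and 2.10 to 5.36% with brimonidine (median 3.03%). In the controls it was 1.49 to 6.77%. The NE and brimonidine ranges overlapped for both genes.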
